A study of Rattus norvegicus with 36 samples.

Results

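Vascular endothelial growth factor A (Vegfa) and 5 genes of the vessel lining, Flt1, Kdr, Tek, Pecam1 and Vwf, were followed in the kidneys of rats with acute renal failure and of their controls. The members were the probes whose platform annotation gave 1 of these 6 symbols, 10 of the 9911 probes on the array and 6 of its 6444 symbols. Vegfa and Vwf had 1 probe each, and Flt1, Kdr, Tek and Pecam1 had 2 each, called the brighter and the dimmer probe here. Of the 10 probes, 9 passed the filter on low values, and the dimmer Kdr probe did not.

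Kidney RNA of 31 male rats aged 6-8 weeks was hybridised to 36 one-colour CodeLink arrays, 2 arrays for each of 5 rats. The injured groups were rats after 40 min of bilateral renal ischemia and 2 h of reperfusion (4 rats), rats with the same ischemia and 2 h of reperfusion that also received 50 µg of alpha MSH intravenously (3 rats), and rats after 40 min of ischemia and 8 h of reperfusion (3 rats). Mercuric chloride at 4 mg/kg was given under the skin 2 h or 8 h before harvest (3 rats each), and cisplatin at 20 mg/kg was given into the peritoneum 2 h before harvest (3 rats). The controls were rats with 40 min of sham surgery harvested at 8 h (3 rats), volume-depleted rats on a sodium-deficient diet with furosemide at 20 mg/kg at 0 and 8 h and harvest at 24 h (4 rats), and untreated normal rats (5 rats). The strain is not given in the sources used here. Each RNA mixes all cell types of the tissue taken, so fewer cells of a type and less RNA per cell cannot be told apart in any result that follows.

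Vegfa is a secreted factor that in the kidney is made mainly by podocytes and tubule cells and that maintains the neighbouring capillaries. It binds the receptor tyrosine kinases Kdr (VEGFR2), the main signalling receptor of the endothelium, and Flt1 (VEGFR1), which binds Vegfa tightly and whose soluble form traps it. Tek (Tie2) is the endothelial receptor of the angiopoietins, Pecam1 (CD31) is an adhesion molecule of endothelial junctions that platelets and leukocytes also carry, and Vwf is the clotting protein that endothelial cells store and release and to which platelets bind.

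The promoter sequences of Vegfa and Flt1 are shown because the ligand, and the receptor by its brighter probe, both fell at 8 h of reperfusion. Each is the 250 bases before an annotated start site in RefSeq, rat build GRCr8. The Vegfa window is chr9:22452604-22452853 on the + strand, 1 of 2 windows annotated for that gene, and the Flt1 window is chr12:12333180-12333429 on the + strand. Capitals mark GGAA or its reverse complement TTCC, the core of the motif of ETS factors, a family with endothelial members.
Vegfa: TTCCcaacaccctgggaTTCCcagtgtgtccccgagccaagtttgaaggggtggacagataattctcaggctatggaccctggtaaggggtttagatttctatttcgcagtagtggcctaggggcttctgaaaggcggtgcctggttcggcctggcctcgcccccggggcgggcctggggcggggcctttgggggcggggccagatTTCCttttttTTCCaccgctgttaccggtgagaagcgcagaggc
Flt1: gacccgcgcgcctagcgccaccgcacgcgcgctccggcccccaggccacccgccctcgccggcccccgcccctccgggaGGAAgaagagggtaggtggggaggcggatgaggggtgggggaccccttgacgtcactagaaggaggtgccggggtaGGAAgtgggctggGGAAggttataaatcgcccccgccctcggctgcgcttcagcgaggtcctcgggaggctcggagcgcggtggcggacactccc
The Vegfa window shown held 4 such cores and the Flt1 window 3. The other Vegfa window, not shown, held 2. Over 33469 rat promoter windows of the same length, 93.2% held at least 1 core, 34.7% held at least 4, 55.5% at least 3 and 77.4% at least 2. ACGTG or its reverse complement CACGT, the core of the motif of hypoxia-inducible factor (HIF), was in neither window shown and in 16.6% of all windows. The other Vegfa window lacked it too. These matches describe the letters of the windows only, and bases outside these windows were not searched for either motif. Kdr also matched the RefSeq table.

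Levels are given in array medians, the probe's intensity divided by the median intensity of its array. Differences are on the log2 scale, with values under a floor of 0.1 array medians set to 0.1, and each rat was set against the normal rats of its own array lot. The sham, cisplatin and 8 h mercuric chloride rats were set against normal rats 11 and 12 (lot 2), and all others against normal rats 1, 2 and 3 (lot 1). The series describes 2 array lots of 24 and 12 arrays, but the labels do not place single arrays in either. This placement came with the rule for the members, and 47 probes were missing on every array placed in lot 2 and on none in lot 1, against 8 the other way. A probe was called where limma's adjusted p, over all probes tested, was under 0.05. The comparisons with normal kidneys share the normal rats of a lot. Probes are not compared with each other in level.

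Kidney tissue was plain in the normal rats, where the tubule genes Lrp2 and Umod averaged 55.7 and 39.1 array medians. The arrays of ischemia 8 h rat 3 and of normal rat 1 stood apart, as did 1 of the 2 arrays of volume depletion rat 1 (its first). Ischemia 8 h rat 3 had a median correlation of 0.926 with its group and 1.65% of probes at the floor, against 4.34% to 12.9% on the other arrays. The values of sham rat 3 stood 2 rows out of register with the probe names and were moved back, which brought their correlation with the other arrays to 0.984, against 0.0652 as deposited. Where leaving out the arrays that stood apart changed a member's call or moved a called value by over 1.5 times, the value without them stands beside the result.

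At 8 h after ischemia, 4 of the 6 members differed from normal kidneys by their brighter probe: Vegfa, Flt1 and Vwf fell, and Pecam1 rose. Counting every probe tested, 2 of 9 were higher and 3 of 9 lower, where 41.7% of all probes tested were called in that comparison, so the members' share stood close to that of the whole array. Their median difference was -0.31, against 0.01 over all probes. Without the arrays that stood apart the same 4 members were called, each in the same direction, beside 46.1% of all probes. No member was called by its brighter probe after 2 h of ischemia (14.7% of all probes called), after 2 h of ischemia with alpha MSH (13.3%), 2 h (7.68%) or 8 h (10.9%) after mercuric chloride, after cisplatin (0.574%), sham surgery (0.351%) or volume depletion (0.169%). Of the dimmer probes, that of Flt1 was called higher at 2 h of ischemia both with and without alpha MSH. Between the 8 h and 2 h ischemia groups, 3 of 6 members were called, Pecam1 higher and Vegfa and Vwf lower, beside 37.7% of all probes.

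**Figure D1:**
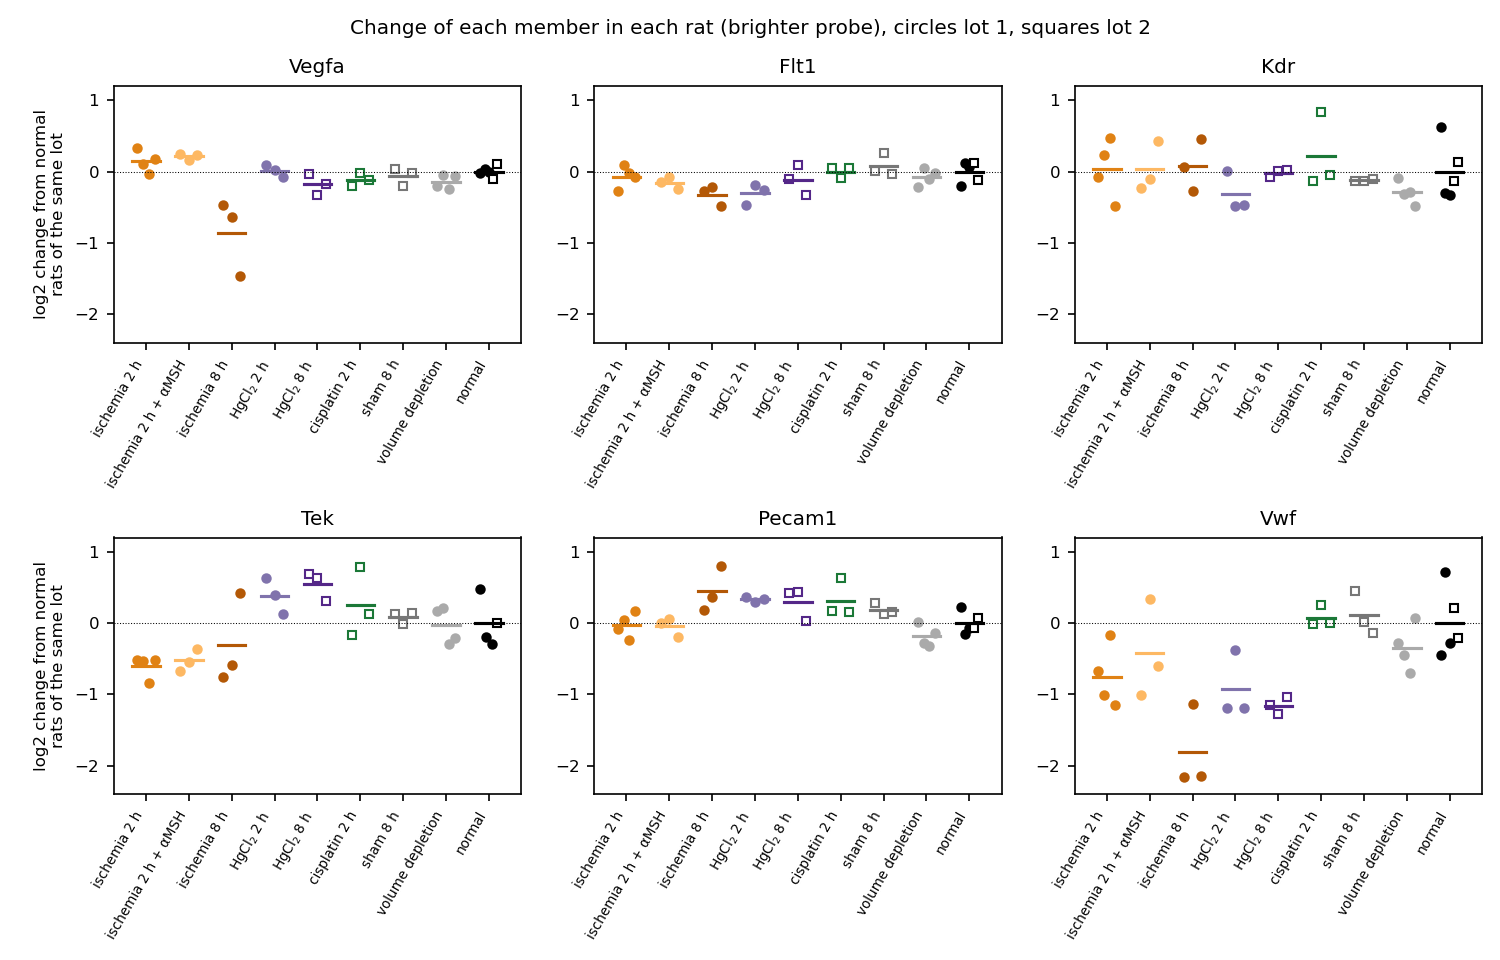
Change of each member's brighter probe from the normal rats of the same lot (log2, y axis) in each rat of the 9 groups; circles are lot 1, squares lot 2, bars group means. The 3 rats at 8 h of ischemia lie below every normal rat for Vegfa and Vwf, and Pecam1 is highest on average in that group.

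Vegfa, the ligand, fell at 8 h of reperfusion and did not pass the test at 2 h. The ischemia 8 h rats had 9.13, 8.15 and 4.60 array medians, against 12.5, 12.9 and 12.6 array medians in the normal rats of their lot. All 3 lay below every normal rat of that lot, and rat 3 lay far below the other 2. The mean was 7.29 ± 2.38 array medians in ischemia 8 h kidneys and 12.7 ± 0.236 array medians in normal kidneys (SD, n = 3 each). The log2 difference was -0.86 ± 0.16 (SE), 1.81-fold lower, with a 95% interval of -1.18 to -0.53 and limma's adjusted p of 0.000101. Ischemia 8 h rat 3, whose array stood apart, carried much of the size: without it the difference was -0.55 with an adjusted p of 0.000179. Without all arrays that stood apart it was -0.56 with an adjusted p of 0.000443.

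At 2 h Vegfa was not called. It stood at 15.9, 13.6, 12.4 and 14.3 array medians after ischemia alone, and at 15.1, 14.2 and 14.9 array medians after ischemia with alpha MSH. The log2 differences from normal kidneys were 0.15 ± 0.15 (SE) without the peptide and 0.22 ± 0.16 (SE) with it, at limma's adjusted p of 0.624 and 0.418. Against volume-depleted rats ischemia 2 h was called higher only without the arrays that stood apart, at 0.25 with an adjusted p of 0.0255, against 0.29 and 0.155 with them. The 8 h rats were therefore lower than the 2 h rats by a larger step than they were below normal kidneys. The log2 difference of ischemia 8 h minus ischemia 2 h was -1.0 ± 0.15 (SE), 2.00-fold lower, with an adjusted p of 9.1e-06, and the groups did not overlap. It was -0.70 without the arrays that stood apart, with an adjusted p of 9.2e-06.

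Vegfa was not called in sham-operated kidneys. It was at 10.3, 8.76 and 9.89 array medians in sham rats, against 9.36 and 10.8 array medians in normal rats of lot 2, and these ranges overlapped. Each set against its own lot, ischemia 8 h differed from sham by -0.79 ± 0.24 (SE) on the log2 scale, with limma's adjusted p of 0.0162, where 22.9% of all probes tested were called. In that comparison 2 of the 5 members tested were called, Vegfa and Vwf, both lower. The call on Vegfa rested on normal rat 11, without which the difference was -0.69 with an adjusted p of 0.0904. When the arrays that stood apart were left out, it was -0.50 with an adjusted p of 0.0193. Mercuric chloride left Vegfa without a call: 13.5, 12.8 and 12.0 array medians at 2 h, and 9.80, 8.00 and 8.86 array medians at 8 h, with log2 differences from normal of 0.01 ± 0.16 and -0.18 ± 0.18 (SE) and limma's adjusted p of 1 and 0.675. The difference between ischemia 8 h and mercuric chloride 8 h, -0.68 ± 0.24 (SE), missed the threshold at an adjusted p of 0.0650, where 11.8% of all probes were called and no member was. It passed without ischemia 8 h rat 1 (adjusted p of 0.0108) or rat 2 (0.0352), and without the arrays that stood apart it was -0.38 with an adjusted p of 0.102.

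Markers of the cells that make Vegfa moved unevenly. Of 8 tubule genes measured, 7 fell at 8 h of ischemia and none rose, beside 41.7% of all probes called in either direction. The largest falls were in Egf, a growth factor of the distal tubule (-2.33 ± 0.19, SE), Slc12a1, the salt transporter of the thick ascending limb (-1.91 ± 0.22), and Lrp2, the endocytic receptor of the proximal tubule (-1.15 ± 0.19). The summed level of the 8 genes was 82.1 to 97.9 array medians in ischemia 8 h kidneys and 178 to 228 array medians in normal kidneys of that lot. The list's median difference was -1.09, and Vegfa's was -0.86. After 8 h of mercuric chloride Vegfa was not called. There 1 of the 8, the water channel Aqp1, fell (-0.63 ± 0.16), beside 10.9% of all probes called. Without the arrays that stood apart 2 of the 8 fell, beside 21.5% of all probes. The sums were 137 to 142 array medians, against 159 to 171 array medians in normal kidneys of lot 2. Of 7 podocyte genes, 1 rose at 8 h of ischemia, Nes, an intermediate filament gene that other cells also use, and none fell. In the fit without the arrays that stood apart, that count turned round: of 6 tested none rose, and Plce1, a phospholipase C, fell (-0.47 ± 0.14, SE). In that fit 46.1% of all probes were called. The sums of the 7 genes, 7.53 to 8.53 array medians in ischemia 8 h kidneys, overlapped those of normal kidneys, 4.46 to 8.49 array medians. The part of either cell type in the fall of Vegfa was not tested.

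Flt1, the high-affinity receptor, gave a different answer from each of its probes. By the brighter probe the ischemia 8 h rats had 1.65, 1.72 and 1.42 array medians, against 1.74, 2.17 and 2.09 array medians in normal rats. The groups did not overlap, but the gap between them was small. The log2 difference was -0.32 ± 0.12 (SE), 1.25-fold lower, with limma's adjusted p of 0.0387. It lost the call without ischemia 8 h rat 3 (-0.24, adjusted p of 0.139), normal rat 2 (-0.26, 0.154) or normal rat 3 (-0.29, 0.114), and kept it without the arrays that stood apart (-0.34, 0.0442). Against sham the log2 difference was -0.40 ± 0.19 (SE) with an adjusted p of 0.127, and against ischemia 2 h it was -0.26 ± 0.12 (SE) with an adjusted p of 0.0872, or 0.0450 without ischemia 2 h rat 1. The brighter probe read, at 2 h of mercuric chloride, 1.45, 1.75 and 1.67 array medians, a difference of -0.30 from normal with an adjusted p of 0.153, and of -0.40 with an adjusted p of 0.0392 without the arrays that stood apart.

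The dimmer Flt1 probe lay near the floor, above it in 25 of 31 rats. After 2 h of ischemia it read 0.183, 0.198, 0.192 and 0.210 array medians, and with alpha MSH 0.174, 0.179 and 0.208 array medians, against 0.118, 0.103 and 0.1 (the floor) in normal rats. Every ischemia 2 h rat, with or without the peptide, lay above every normal rat of the lot. The probe rose by 0.88 ± 0.21 (SE) on the log2 scale without the peptide and by 0.81 ± 0.23 (SE) with it, at limma's adjusted p of 0.00488 and 0.0173. With the floor at 0.05, an alternative chosen after seeing the data, the rise without the peptide was 1.04, so the size depends on where the floor is set. All 3 mercuric chloride 2 h rats lay at the floor, and the difference of ischemia 2 h from them had an adjusted p of 0.0022. Against volume-depleted rats, with 0.130, 0.1, 0.1 and 0.200 array medians, it was 0.62 ± 0.20 (SE), with an adjusted p of 0.0256. All mercuric chloride 8 h, cisplatin and sham rats also lay above both lot 2 normals by this probe. Their differences from normal were 0.47 ± 0.25, 0.36 ± 0.25 and 0.25 ± 0.25 (SE), and none was called. The highest of these rats, 8 h after mercuric chloride, read 0.204 array medians. At 8 h of ischemia the probe read 0.115, 0.113 and 0.191 array medians, a log2 difference of 0.34 ± 0.23 (SE) from normal with an adjusted p of 0.234, in the opposite direction to the brighter probe. Its difference between 8 h and 2 h of ischemia, -0.53 ± 0.21 (SE), had an adjusted p of 0.0497, and of 0.1 with the lower floor. Over 31 rats the 2 Flt1 probes correlated at -0.02, against 0.72 for the Tek probes over 30 rats and 0.71 for the Pecam1 probes over 31 rats. These correlations pool all groups and both lots.

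**Figure D2:**
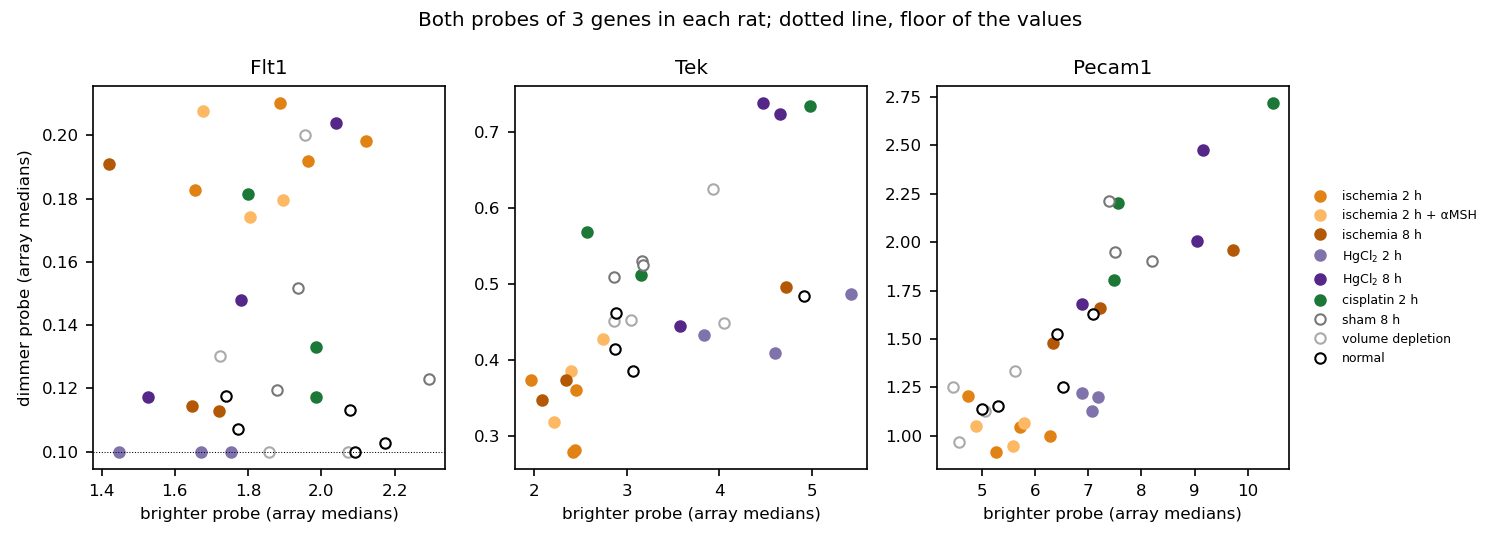
Level of the dimmer probe (y axis) against the brighter probe (x axis) of Flt1, Tek and Pecam1, both in array medians, each point 1 rat coloured by group. The Tek and Pecam1 probes climb together, whereas the Flt1 probes show no common direction.

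Kdr, the main signalling receptor, was barely measured. Its brighter probe lay between the floor and 0.216 array medians, above the floor in 24 of 31 rats, and the highest value was that of normal rat 1, whose array stood apart. Its dimmer probe was above the floor in 2 of 31 rats, ischemia 8 h rat 3 at 0.138 and normal rat 1 at 0.107 array medians. The 8 h ischemia rats read 0.147, 0.116 and 0.191 array medians by the brighter probe, against 0.216, 0.114 and 0.111 array medians in normal rats, and the groups overlapped. The log2 difference was 0.08 ± 0.26 (SE) with a 95% interval of -0.46 to 0.63 and limma's adjusted p of 0.837, and it was -0.10 without ischemia 8 h rat 3 and 0.21 without the arrays that stood apart. The brighter probe does not exclude a change of Kdr within that 95% interval, values held at the floor can hide a fall, and the dimmer probe was not tested.

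Tek, the angiopoietin receptor, was lower at 2 h of ischemia than at 2 h of mercuric chloride. Its brighter probe had 2.44, 2.42, 1.97 and 2.45 array medians after 2 h of ischemia, against 5.42, 4.61 and 3.84 array medians 2 h after mercuric chloride. The groups were far apart. The log2 difference of ischemia 2 h minus mercuric chloride 2 h was -0.98 ± 0.24 (SE), 1.98-fold lower, with limma's adjusted p of 0.00569, and Tek was the only member whose brighter probe was called there, beside 15.1% of all probes. The call was lost with missing values set to the floor (adjusted p of 0.316) and with sham rat 3 as deposited (0.323), at the same difference. Without the arrays that stood apart Pecam1 was called there too, lower at -0.36 with an adjusted p of 0.0241. The dimmer probe gave -0.46 ± 0.18 (SE) without overlap but with an adjusted p of 0.0911, and of 0.0420 without those arrays.

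Set against normal kidneys, Tek was not called at either time. By the brighter probe, rats with 2 h of ischemia and alpha MSH had 2.22, 2.41 and 2.75 array medians, against 4.91, 3.07 and 2.88 array medians in normal rats 1, 2 and 3. All 7 rats at 2 h of ischemia lay below all 3 normal rats. The log2 differences were -0.60 ± 0.24 (SE) without and -0.52 ± 0.26 (SE) with the peptide, at limma's adjusted p of 0.0978 and 0.198. Normal rat 1, whose array stood apart, carried much of the size: without it they were -0.36 and -0.28, with adjusted p of 0.222 and 0.407 once all arrays that stood apart were left out. The dimmer probe was lower after 2 h of ischemia than after volume depletion by 0.61 on the log2 scale (-0.61 ± 0.17, SE), with an adjusted p of 0.0111, where 20.1% of all probes were called. In that comparison the brighter probe gave -0.57 ± 0.22 (SE) with an adjusted p of 0.0750, and 0.0107 at -0.55 without the arrays that stood apart. At 8 h of ischemia the brighter probe read 2.09, 2.35 and 4.72 array medians. The log2 difference from normal of -0.30 ± 0.26 (SE) had an adjusted p of 0.369, and without rat 3 it was -0.67 with an adjusted p of 0.0229. Without all arrays that stood apart, normal rat 1 included, it was -0.42 with an adjusted p of 0.133. Mercuric chloride at 8 h gave 4.65, 4.48 and 3.57 array medians, which could not be tested against normal because the brighter probe was missing in normal rat 12. Normal rat 11 had 2.88 array medians. Against sham, with 3.16, 2.86 and 3.18 array medians, the log2 difference was 0.46 ± 0.26 (SE) with an adjusted p of 0.299.

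Pecam1, the junction protein, was the 1 member that rose at 8 h of ischemia, by both of its probes. The brighter probe had 6.34, 7.22 and 9.72 array medians in ischemia 8 h rats, against 6.53, 5.01 and 5.31 array medians in normal rats, and rat 1 overlapped the normal range. The dimmer probe had 1.48, 1.66 and 1.96 array medians in ischemia 8 h rats, against 1.25, 1.14 and 1.16 array medians in normal rats, without overlap. The log2 differences were 0.45 ± 0.16 (SE) and 0.52 ± 0.15 (SE), with limma's adjusted p of 0.0218 and 0.00710. Ischemia 8 h rat 3 was again the most extreme: without it the brighter probe gave 0.28 with an adjusted p of 0.148. Leaving out normal rat 2 gave 0.37 with an adjusted p of 0.1, and leaving out normal rat 3 gave 0.42 with an adjusted p of 0.0685. When the arrays that stood apart were left out, both probes kept the call, at 0.39 with an adjusted p of 0.0410 for the brighter and 0.45 with 0.0339 for the dimmer.

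At 2 h of ischemia Pecam1 was not called. Ischemia 2 h rats had 5.28, 5.73, 4.75 and 6.28 array medians by the brighter probe, below all 3 rats at 8 h. The log2 difference of 8 h minus 2 h was 0.48 ± 0.15 (SE) by the brighter probe and 0.70 ± 0.14 (SE) by the dimmer, at limma's adjusted p of 0.0114 and 0.000284. In the fit without the arrays that stood apart, the brighter probe lost the call (0.30, adjusted p of 0.0706) and the dimmer kept it (0.60, adjusted p of 0.0021). Sham kidneys had 8.20, 7.39 and 7.50 array medians by the brighter probe against 6.42 and 7.09 array medians in lot 2 normals. Ischemia 8 h and sham were not separated, at 0.26 ± 0.23 (SE) and an adjusted p of 0.471 by the brighter probe. The dimmer probe gave 0.16 ± 0.22 (SE) with an adjusted p of 0.683. Cisplatin kidneys held the highest single value, with 7.56, 10.5 and 7.49 array medians, but the log2 difference from normal was 0.32 ± 0.17 (SE) with an adjusted p of 0.907. Mercuric chloride 8 h kidneys had 9.05, 9.15 and 6.88 array medians, at 0.30 ± 0.17 (SE) and an adjusted p of 0.348. By the dimmer probe all sham, cisplatin and mercuric chloride 8 h rats lay above both lot 2 normals. Those differences were 0.36 ± 0.17, 0.49 ± 0.17 and 0.37 ± 0.17 (SE), with adjusted p of 0.832, 0.374 and 0.187. At 2 h of mercuric chloride the brighter probe read 7.19, 6.88 and 7.07 array medians, above all lot 1 normals, at 0.34 ± 0.16 (SE) and an adjusted p of 0.209, while the dimmer probe showed a difference of 0.00 ± 0.15. Without the arrays that stood apart the brighter probe was called, at 0.45 with an adjusted p of 0.0392, and the dimmer was not (0.04, 0.933).

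Some markers of leukocytes, which also carry Pecam1, rose in the same kidneys. Of 14 leukocyte genes tested, 6 rose and none fell at 8 h of ischemia, beside 41.7% of all probes called in either direction. They were led by S100a9, a calcium-binding protein of neutrophils and monocytes (5.02 ± 0.46, SE), Cd14, an endotoxin co-receptor (2.00 ± 0.26), and C1qb, a complement chain made by macrophages (1.83 ± 0.24). The summed level of 16 leukocyte genes was 48.9 to 64.0 array medians in ischemia 8 h rats and 24.8 to 31.3 array medians in normal rats. Values missing in a rat were left out of its sum, so the sums do not hold the same genes in every rat. Cd3d and Aif1 averaged 3.68 and 3.62 array medians in normal rats but had a value above the floor in only 13 and 12 of 31 rats. A missing value counts as not above the floor there, so these counts do not show low expression. The same sum was 27.1 to 31.7 array medians after 2 h of ischemia, when Pecam1 was not called, and 27.1 to 35.1 array medians in sham rats. After 8 h of mercuric chloride it was 27.9 to 55.0 array medians, which overlapped ischemia 8 h rats, and Pecam1 was not called there. Single leukocyte genes were called at 2 h of ischemia as well, 2 higher and 3 lower of 14, beside 14.7% of all probes. S100a9 (3.53 ± 0.43, SE) and Cd14 (1.21 ± 0.24) rose, and Ly86 fell (-1.37 ± 0.25). S100a9 also rose in sham rats (2.47 ± 0.51), and 2 h (2.35 ± 0.46) and 8 h (3.53 ± 0.51) after mercuric chloride. The part of leukocytes in the rise of Pecam1 was not tested.

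Vwf, the stored clotting protein, fell furthest of the 6 genes. Ischemia 8 h rats had 0.421, 0.860 and 0.428 array medians, against 1.38, 3.11 and 1.56 array medians in normal rats. All 3 lay below every normal rat, and normal rat 2 lay well above the other normal rats of its lot. The log2 difference was -1.81 ± 0.34 (SE), 3.51-fold lower, with a 95% interval of -2.51 to -1.11 and limma's adjusted p of 0.000122. Leaving out any 1 rat gave -2.15 to -1.45 and kept the call, and leaving out the arrays that stood apart gave -1.87 with an adjusted p of 0.000643. Against sham rats, which had 3.54, 2.61 and 2.37 array medians, the log2 difference was -1.92 ± 0.51 (SE), 3.79-fold lower, with an adjusted p of 0.00747. That call was lost without normal rat 12 (-1.71, adjusted p of 0.0541).

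After the other injuries Vwf was not called against normal kidneys. Ischemia 2 h rats had 1.18, 0.936, 1.68 and 0.846 array medians, and the log2 difference from normal was -0.75 ± 0.32 (SE) with limma's adjusted p of 0.124, and -0.97 with an adjusted p of 0.0575 without the arrays that stood apart. The step between times, ischemia 8 h minus ischemia 2 h, was -1.06 ± 0.32 (SE) with an adjusted p of 0.0105. The call was lost without ischemia 8 h rat 1 (-0.89, adjusted p of 0.0531) or rat 3 (-0.90, 0.0528). Mercuric chloride rats had 0.823, 1.45 and 0.823 array medians at 2 h, and 1.17, 1.07 and 1.26 array medians at 8 h. The 3 rats at 8 h were close together and below both lot 2 normals, which had 3.01 and 2.24 array medians. The log2 difference from normal was -0.92 ± 0.34 (SE) at 2 h with an adjusted p of 0.101, and -1.16 ± 0.38 (SE) at 8 h with an adjusted p of 0.0511. When the arrays that stood apart were left out, both passed, at -1.15 with an adjusted p of 0.0494 and -1.16 with 0.0288.

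Mercuric chloride at 8 h did separate from sham. Vwf fell by 1.27 on the log2 scale (-1.27 ± 0.34, SE), 2.40-fold lower without overlap, with limma's adjusted p of 0.0128. It was the 1 member called of 6, beside 13.2% of all probes. The call was lost without mercuric chloride 8 h rat 2 (adjusted p of 0.0508) at -1.21, or sham rat 1 (0.0739) at -1.10. Cisplatin kidneys held 2.57, 3.08 and 2.59 array medians, and volume-depleted kidneys 1.56, 1.38, 1.16 and 1.97 array medians, with differences from normal of 0.08 ± 0.38 and -0.34 ± 0.32 (SE). Mean changes from normal ran in the order sham, cisplatin, normal, volume depletion, ischemia 2 h with alpha MSH, ischemia 2 h, mercuric chloride 2 h, mercuric chloride 8 h and ischemia 8 h. The ranges of every pair of neighbours in that order overlapped.

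Platelets, which carry Vwf as well, were hardly represented. Of 12 platelet genes listed, 2 were on the array. Gp5 was at the floor in all but 1 rat, and Gp1bb averaged 0.275 array medians in normal rats. Their sum was 0.273 to 0.428 array medians in ischemia 8 h rats and 0.369 to 0.501 array medians in normal rats, and Gp1bb, the 1 gene tested, was not called. Of 2 red cell genes, Alas2, an enzyme of heme synthesis, rose at 8 h of ischemia (1.92 ± 0.47, SE) and Slc4a1, the anion exchanger of red cells, fell (-0.47 ± 0.13). Beside 41.7% of all probes called, 1 of 7 genes of pericytes, mesangium and smooth muscle rose and 1 fell. Of 5 genes of adrenal gland and fat tissue none was called. In the fit without the arrays that stood apart, 1 of these 5 was, Adipoq, the fat cell hormone adiponectin, higher (0.97 ± 0.36, SE). There 46.1% of all probes were called.

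**Figure D3:**
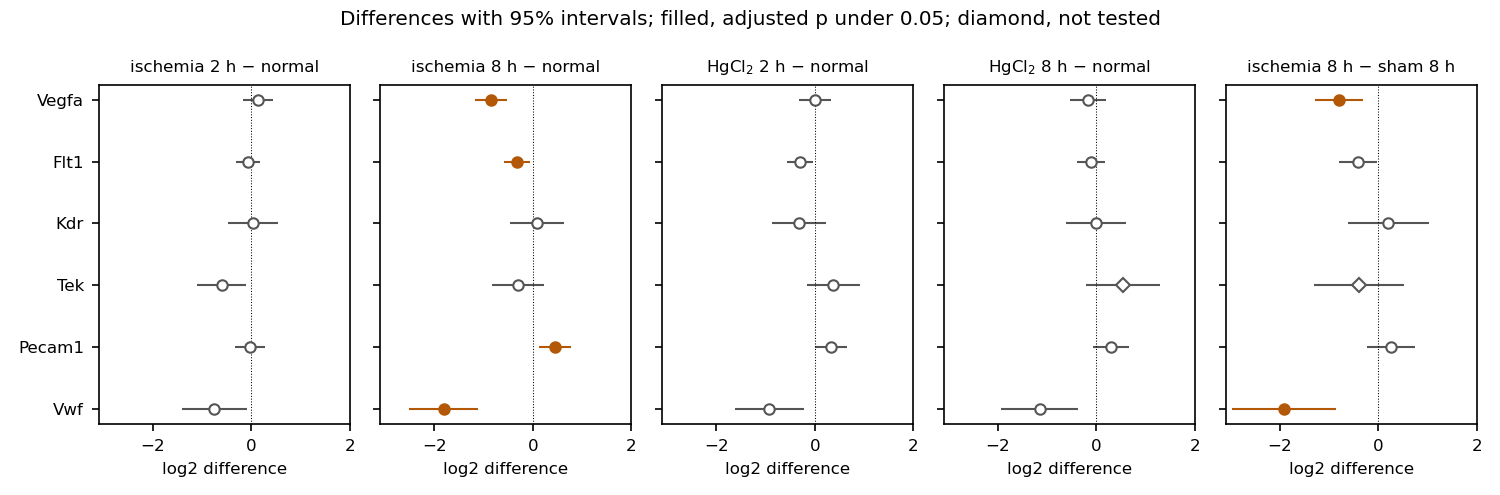
Log2 differences (x axis) of the 6 members by their brighter probe in 5 comparisons, each the first-named group minus the second, with 95% intervals; filled points passed the test and diamonds were not tested. Vegfa and Vwf are the 2 members called lower both against normal and against sham at 8 h of ischemia.

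Alpha MSH, a peptide hormone with anti-inflammatory effects, gave no call in any member. Ischemia with the peptide minus ischemia alone at 2 h gave 0.07 ± 0.15 (SE) for Vegfa, -0.09 ± 0.12 for Flt1, 0.08 ± 0.24 for Tek, -0.02 ± 0.15 for Pecam1 and 0.33 ± 0.32 for Vwf. All had limma's adjusted p of 1. Over the whole array 0% of probes were called, and 342 had an unadjusted p under 0.05. The 95% interval for Vwf, -0.33 to 0.98, leaves room for nearly a doubling, while that for Vegfa was -0.23 to 0.38. Mercuric chloride at 8 h minus 2 h, each against its own lot, also gave no call among the members, beside 0.693% of all probes. Its interval for Vwf ran from -1.29 to 0.82.

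The members did not move as a block. Over 31 rats and their changes from lot normals, Vwf correlated with Flt1 (brighter probe) at 0.62 and with Vegfa at 0.48. Pecam1 correlated with Vegfa at -0.50 by the brighter probe and -0.67 by the dimmer. Vwf and Tek correlated at 0.01 over 30 rats, and Tek and Pecam1 at 0.57. These values mix all groups and share arrays and scaling, and they describe these rats only. Among named genes the pattern most like Vegfa was that of Ubl3, with a Pearson correlation of 0.91 over 31 rats but a Spearman correlation of 0.59. The closest to Vwf was Hand1 at 0.84, to Tek Prkd2 at 0.87 over 30 rats, to Flt1 S100b at 0.85, to Pecam1 Pom121 at 0.83 and to Kdr Rab15 at 0.72.

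Other genes of the VEGF and angiopoietin pathway were called at both times of ischemia. Of 12 listed, 10 were on the array and tested. After 2 h of ischemia 2 of the 10 fell and none rose, beside 14.7% of all probes called: Nrp1, a co-receptor of Vegfa (-0.68 ± 0.15, SE), and Tie1, the partner receptor of Tek (-0.38 ± 0.13), with limma's adjusted p of 0.00227 and 0.0429. With alpha MSH, Nrp1 (-0.72 ± 0.16) and Angpt2, the angiopoietin that can block Tek (-0.87 ± 0.22), fell, beside 13.3% of all probes. At 8 h of ischemia, beside 41.7%, Angpt2 rose (0.83 ± 0.22) and Tie1 fell (-0.76 ± 0.14), with adjusted p of 0.00286 and 7.0e-05. Between the 2 times of ischemia 2 of the 10 rose and 1 fell, beside 37.7% of all probes. Angpt2 rose by 1.40 ± 0.20 (SE), with an adjusted p of 6.3e-06, and Nrp1 rose by 0.77 ± 0.15. Without the arrays that stood apart 1 of the 10 fell at 2 h of ischemia, Nrp1, and Tie1 lost its call. At 8 h 1 rose, Angpt2, and 2 fell, Tie1 and Vegfb (-0.78 ± 0.18, SE, for Vegfb). Between the 2 times 2 rose and 2 fell in that fit. All probes were called there at 18.8% at 2 h, 46.1% at 8 h and 42.6% between the times.

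Another gene of that pathway fell after mercuric chloride. Angpt1, the ligand that activates Tek, fell by 0.86 on the log2 scale at 2 h (-0.86 ± 0.19, SE) and by 0.81 at 8 h (-0.81 ± 0.21), with limma's adjusted p of 0.00606 and 0.0133. Nrp1 fell at 2 h (-0.68 ± 0.16). All probes were called at 7.68% at 2 h and 10.9% at 8 h. Without the arrays that stood apart 3 of the 10 fell at 2 h, beside 11.2% of all probes. After cisplatin, sham surgery and volume depletion none of the 10 was called. The list's median difference was -0.22 at 2 h of ischemia and -0.28 at 2 h of mercuric chloride, against -0.06 and -0.05 over all probes.

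Endothelial genes outside the 6 members were called in both directions after ischemia. Of 26 tested, 6 rose and 2 fell at 2 h, where 697 probes of the whole array rose and 698 fell, 14.7% in all. At 8 h 11 rose and 3 fell, where 1968 probes rose and 1978 fell, 41.7% in all. Whether the list differs from the array was not tested. The count at 8 h was 8 higher and 2 lower without the arrays that stood apart, beside 46.1% of all probes. Selp, the P-selectin that endothelial cells store together with Vwf, read 0.408, 0.337, 1.60 and 0.225 array medians after 2 h of ischemia, against 0.136, 0.1 and 0.1 (the floor) in normal rats. It was called higher (2.09 ± 0.37, SE), but the size depends on the floor: with the floor at 0.05, an alternative chosen after seeing the data, it was 2.26. Other genes that rose at 2 h were Procr, the receptor of protein C (1.63 ± 0.22), and Sele, E-selectin (1.36 ± 0.29). At 8 h Procr (3.21 ± 0.26) and Apln, the ligand of the apelin receptor (2.30 ± 0.23), rose, and Igfbp5, a binding protein of insulin-like growth factors, fell (-1.71 ± 0.17). With alpha MSH, 7 rose and 2 fell at 2 h, beside 13.3% of all probes, with Selp at 3.27 ± 0.39, or 3.44 with the lower floor. Mercuric chloride gave 1 call at each time, Igfbp5 lower at 2 h (-0.57 ± 0.17) and Apln lower at 8 h (-0.95 ± 0.26). All probes were called there at 7.68% and 10.9%. When the arrays that stood apart were left out, mercuric chloride gave 2 calls at each time, beside 11.2% of all probes at 2 h and 21.5% at 8 h. The summed level of the 26 genes was 59.4 to 78.4 array medians at 8 h of ischemia and 81.5 to 95.5 array medians in normal kidneys of that lot. Igfbp5 carried that sum, with 10.7 to 22.2 array medians at 8 h of ischemia and 45.6 to 54.8 array medians in those normal kidneys. Without it, an alternative chosen after seeing the data, the sum of the other 25 genes was higher at 8 h of ischemia, 48.7 to 56.2 array medians, than in those normal kidneys, 35.9 to 40.7 array medians. Several genes of this list are also made by tubule or other cells.

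Vegfa is a known target of HIF, and a number of that factor's other targets rose after ischemia. Of 22 tested, 6 rose and 1 fell at 2 h of ischemia, beside 14.7% of all probes called. At 8 h, when Vegfa fell, 11 rose and 2 fell, beside 41.7%. In the fit without the arrays that stood apart, 11 rose and 4 fell at 8 h, beside 46.1%. Those lower were Pfkfb4 (-1.20 ± 0.35, SE), Bnip3l (-0.79 ± 0.10), Egln1 (-0.78 ± 0.25) and Pdk1 (-0.31 ± 0.10). Between the 2 h and 8 h ischemia groups, where Vegfa also fell, 5 of the 22 rose and 6 fell, beside 37.7% of all probes. The list's median difference between those groups was -0.11. It was -0.25, with 4 higher and 7 lower, without the arrays that stood apart, beside 42.6% of all probes. Edn1, the vasoconstrictor endothelin 1, rose at both times (2.35 ± 0.17 at 2 h and 2.19 ± 0.19 at 8 h, SE). P4ha1, a collagen prolyl hydroxylase, and Ankrd37 rose at 2 h (1.7 ± 0.21 and 1.64 ± 0.18). Adm, the vasodilator adrenomedullin (1.92 ± 0.20), and Ldha, lactate dehydrogenase A (1.44 ± 0.21), rose at 8 h. The list's median difference from normal at 8 h was 0.39, against 0.01 over all probes. At 8 h of mercuric chloride 3 rose and 2 fell, beside 10.9% of all probes. Adm (1.40 ± 0.22) and P4ha1 (1.12 ± 0.26) were higher and Ankrd37 lower (-0.83 ± 0.21). Without the arrays that stood apart 5 rose and 2 fell, beside 21.5% of all probes.

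**Figure D4:**
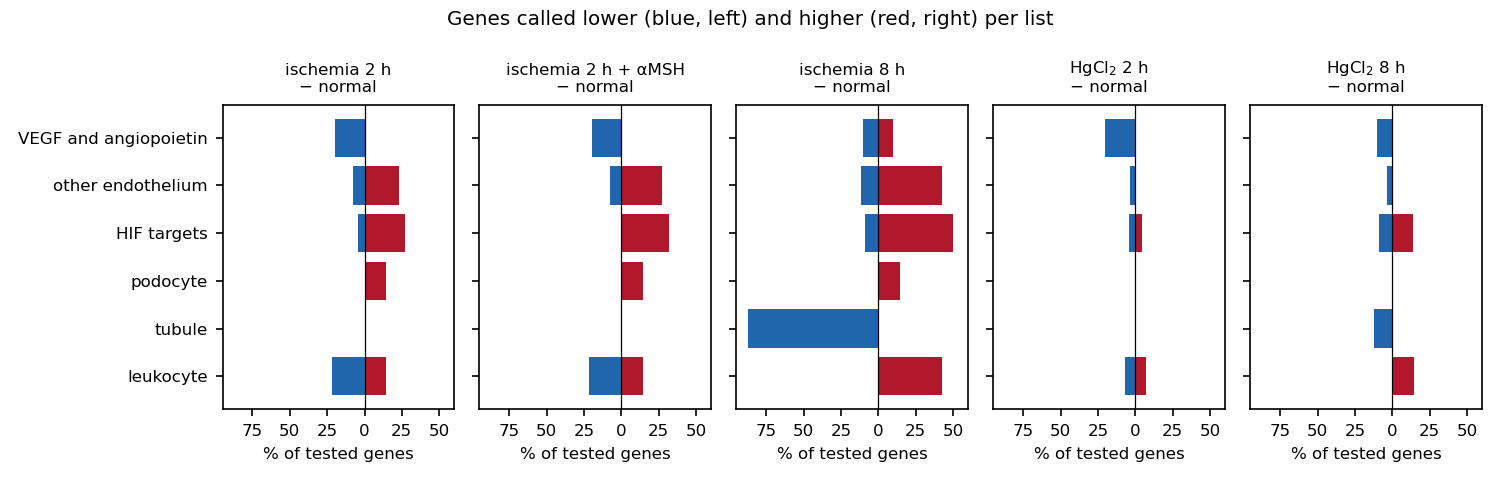
Share of the tested genes of 6 lists called lower (left of 0) and higher (right of 0), in percent, in 5 comparisons with normal kidneys. Tubule genes at 8 h of ischemia are the longest bar, with 7 of 8 lower, and HIF targets rise there in 11 of 22. Of all probes, 41.7% were called in that comparison.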

How the data were processed

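Kidney RNA of 31 rats was measured on 36 arrays, and 2 arrays of 1 rat were averaged. The deposited values were read as 2 raised to the power of a linear intensity, because 100% of 343118 deposited values gave log2 values that were whole multiples of a fixed step. How the authors scaled and background-corrected the arrays is not given in the sources used, and labelling followed the CodeLink standard protocol per the labels. A deposited value of 0.5 (0.969% of values) was treated as missing. Because the unit was none of the usual ones, the test for linear intensities in the planned design was kept and applied to the log2 of the deposited values.

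Each intensity was scaled to its array's median, raised to 0.1 where it was lower, and taken to log2. limma 3.58.1 (R 4.3.3, statmod 1.5.0) fitted all 9 groups with both lots' normal rats apart (21 residual degrees of freedom), and 16 comparisons were made, each over all probes with at least 3 rats above the floor, at least 2 in 3 rats measured and at least 2 rats measured in each group compared. Each p was adjusted by the Benjamini-Hochberg method, and it measures the spread between rats, which the labels number separately. The series describes 3 normal arrays in each lot. Of 9911 probes, 7229 had 1 symbol, 51 of these by a match of their accession, and 2682 had none. The probe with the higher mean stands for a gene. All members are described, and for the other lists the genes named are the 3 called with the largest change in a comparison, or in the VEGF and angiopoietin list any called. Genes most like a member are the 5 with the highest Pearson correlation, of which the first is given. The members and lists were chosen with earlier results of these data known. The number of arrays limits the precision. Alternatives changed the floor, scaling, filter, lot term, probe, fill value, sham rat 3 and the rats included.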

Additional observations from a re-analysis of the deposited data

Results flagged for a closer look

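In each of 2 groups of 4 rats a single rat stood off from the rest by 1 probe. Chance brings this about in about 1 in 20 checks, and 9 member probes were checked in both groups. By the brighter Tek probe, ischemia 2 h rat 3 read 1.97 array medians, and its gap to the nearest of the others was 0.941 of the group's whole range. By the dimmer Tek probe, volume depletion rat 1 read 0.625 array medians, with a gap of 0.981 of the range. The first array of that rat is 1 of those that stood apart.

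The effect of ischemia against normal kidneys differed between 8 h and 2 h for 5 probes, by limma's adjusted p for the difference itself. The log2 differences of 8 h minus 2 h were 0.48 for the brighter and 0.70 for the dimmer Pecam1 probe, -1.06 for Vwf, -1.0 for Vegfa and -0.53 for the dimmer Flt1 probe. Both times share the normal rats, so the difference equals that of the 2 ischemia groups.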

How the results depend on the processing

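Of the counts of the 6 members called, none moved with scaling by the 75th percentile, limma's trend and robust options, a floor of 0.05, no filter on dim probes or a replicate block (4 at ischemia 8 h minus normal in each), and Vwf and Vegfa kept their calls there when any 1 rat was left out. The numbers of the rats did not pair them: of 55 same-numbered pairs, 21 correlated above 0.1, and the block's correlation was -0.0179. Without a lot term 1 member was called at ischemia 2 h, 1 at mercuric chloride 2 h, 2 at mercuric chloride 8 h and 1 after cisplatin, each minus normal, 1 at mercuric chloride 8 h minus 2 h and 1 at ischemia 8 h minus mercuric chloride 8 h. By each gene's other probe 1 was called at ischemia 2 h minus normal, 1 with alpha MSH minus normal and 2 at ischemia 2 h minus volume depletion. By that probe Flt1 turned direction, to 0.88, 0.81 and 0.34 at ischemia 2 h, with alpha MSH and at ischemia 8 h, each minus normal. With fill values at the floor 1 was called at mercuric chloride 8 h minus normal, 0 at ischemia 2 h minus mercuric chloride 2 h and 1 at ischemia 8 h minus mercuric chloride 8 h. At mercuric chloride 8 h minus normal 1 was called with a floor of 0.5, with quantile normalization, with rats of 1 lot only and without the arrays that stood apart. In the last of these fits 21.5% of all probes were called. Quantile normalization gave 1 at ischemia 8 h minus sham and 2 at ischemia 2 h minus mercuric chloride 2 h. Without the arrays that stood apart 3 were called at mercuric chloride 2 h minus normal, beside 11.2% of all probes. In that fit 2 were called at ischemia 2 h minus mercuric chloride 2 h (27.2% of all probes). Another 2 were called at ischemia 2 h minus volume depletion (32.5%). The share of all probes was not worked out for the other settings, so their counts cannot be set against the array. With sham rat 3 as deposited, which adds a mismatched rat to the common spread, 0 were called at ischemia 8 h minus normal, 0 at ischemia 8 h minus sham, 0 at mercuric chloride 8 h minus sham, 0 at ischemia 2 h minus mercuric chloride 2 h and 1 at ischemia 8 h minus 2 h, and Vwf at mercuric chloride 8 h minus sham turned to 0.26. The cause of the other moves was not tested. Leaving out 1 rat gave 2 to 4 calls at ischemia 8 h minus normal, 1 to 4 at ischemia 8 h minus 2 h, 1 to 2 at ischemia 8 h minus sham, 0 to 1 at mercuric chloride 8 h minus sham, 1 to 1 at ischemia 2 h minus mercuric chloride 2 h, 0 to 1 at ischemia 8 h minus mercuric chloride 8 h, and 0 to 0 in every other comparison. Signal over background limited Kdr and the dimmer Flt1 probe, which lay near the floor.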
